A study of Mus musculus with 15 samples.

Results

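Retained introns are stretches that the annotation splices out of some transcripts of a gene and keeps in others. The authors' table of splicing events held 969 events of this type in 840 genes, out of 138940 events of all types. All 969 were taken by their event type, without regard to their values. CD8+ T cells of OT-1 Tg C57BL/6J mice, which carry a transgenic receptor for an ovalbumin peptide, were transferred into C57BL6/J recipients. Recipients received antigen with rat IgG as control antibody (antigen alone, Ag) or antigen with the costimulatory antibodies anti-OX40 and anti-41BB (Ag+Costim). CD8+ T cells were sorted from spleen and lymph node on day 4 per the labels (an earlier time is named in parts of the paper), and 5 libraries of poly(A) RNA per group entered the comparison. Naive OT-1 cells were not analysed here, and the labels do not name the animal behind each library, so the p-values measure the spread between these libraries.

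Introns are removed from a pre-mRNA between a 5′ splice site (donor), which nearly always begins the intron with GT, and a 3′ splice site (acceptor), which ends it with AG. An intron that stays in a polyadenylated RNA can hold the transcript in the nucleus, expose it to nonsense-mediated decay through a premature stop codon, or, where the reading frame has no stop codon, add a stretch of amino acids to the protein. Short, GC-rich introns with weak splice sites are known to be retained more often, and several splicing factors, SR proteins among them, control their own amounts through such introns.

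Each event has 1 percent spliced in (PSI) value per group, on a scale from 0 (intron always removed) to 1 (intron always kept). The libraries of a group were already combined by the authors, so PSI values carry no error and no test across libraries was possible. In their place, transcript counts gave a retained share for each library, the percentage that transcripts holding the intron made up of the counts on transcripts that either hold or splice it. This could be measured for 834 of the 969 introns.

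The splice sites of the introns on which the comparisons turned are shown first, since they separate ordinary introns from annotated gaps. Letters were read from GENCODE M21 transcripts that keep the intron (mm10). Each donor line gives the last 10 exon bases and the first 20 intron bases, each acceptor line the last 27 intron bases and the first 3 exon bases, and capitals mark the dinucleotides at the ends of the intron.
Ly6e donor, chr15:74955336-74955482, plus strand: gtcctgaaagGTaaggtagacatgctacac
Ly6e acceptor: gcgcatagcttgggacccctgtcgtAGtct
Capn15 donor, chr17:25960232-25960336, minus strand: cctgcccaggGTaagggccccagccagatg
Capn15 acceptor: tggctcccttatccacaccccccacAGcct
Bcl2l11 donor, chr2:128128757-128128924, plus strand: gaaccgcaagGTaatcccgacggcgaaggg
Bcl2l11 acceptor: ccagtgggtatttctcttttgacacAGaca
Inpp5d donor, chr1:87715094-87715276, plus strand: aactacattgGTatggggccttttggacag
Inpp5d acceptor: cgccaaagaagttttcatcttccacAGcca
Srsf1 donor, chr11:88049216-88049411, plus strand: atctcacgagGTaggttatacacttattct
Srsf1 acceptor: caatggaaagttctgtctatccaatAGgga
Mcl1 donor, chr3:95658909-95659046, plus strand: tactgcggcgGCgccagcctcggcgcgggc
Mcl1 acceptor: gggtggtcgcccggccgccgcccgtGGgcg
Xpo1 donor, chr11:23256168-23256411, plus strand: caaccatcccGAgggggaggggggaggcac
Xpo1 acceptor: tctcacggactggcccgctcccctcCCcct
Ly6e, Capn15, Bcl2l11, Inpp5d and Srsf1 had the usual GT and AG. Mcl1 and Xpo1 had neither, and their PSI values were among those that moved most towards Ag+Costim.

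Retention was lower in Ag+Costim for more introns than it was higher. Median PSI values were 0.487 (Ag) and 0.434 (Ag+Costim), and 613 of the 969 introns had the lower value in Ag+Costim. The median difference within an intron was small, at -0.0075 (Ag+Costim minus Ag). At a PSI difference over 0.05, without the probability criterion that the study applied beside it, 230 introns (23.7%) were higher in Ag, against 6.09% of events of all types, and 76 (7.84%) were higher in Ag+Costim, against 5.82%. The remaining 663 introns differed by 0.05 or less. At a difference of 0.1, 126 introns were higher in Ag and 31 in Ag+Costim, where 3.0% and 2.87% of all events passed.

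**Figure D1:**
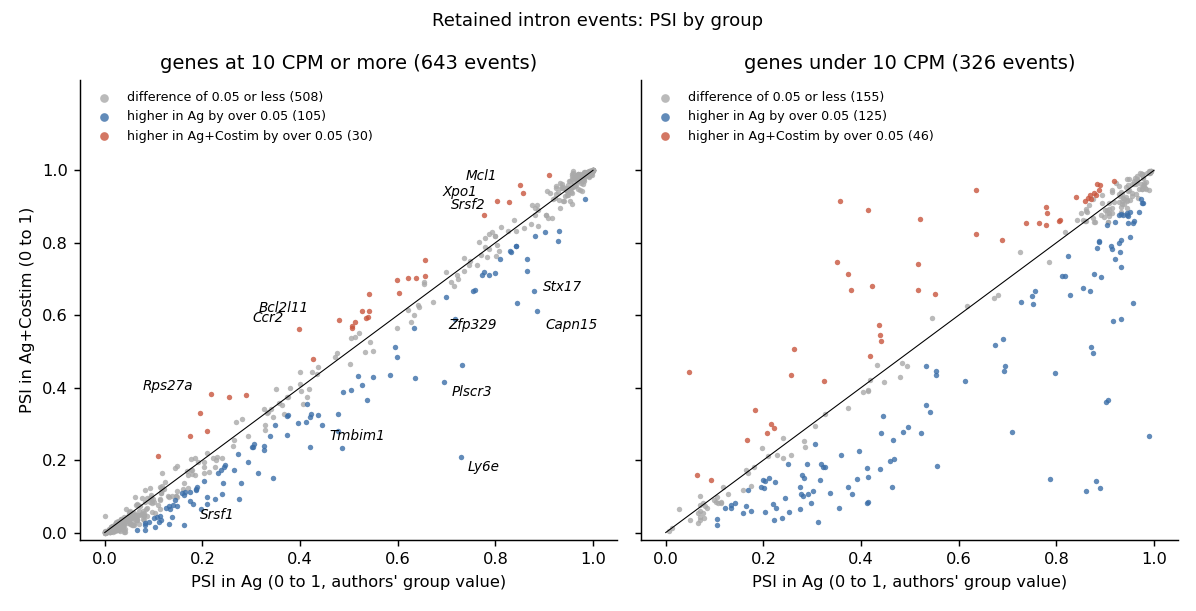
PSI of each retained intron in Ag (x axis) and Ag+Costim (y axis), both from 0 to 1, for 643 introns in genes at 10 CPM or more (left) and 326 in genes below (right). Points below the diagonal have the higher PSI in Ag. Blue points, 105 on the left and 125 on the right, outnumber red points, 30 and 46, in both panels.

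PSI differences over 0.05 were more frequent in genes of low level. CPM values are gene counts scaled to a common library total (TMM). Of 100 introns in genes under 1 CPM, 46 were higher in Ag and 16 in Ag+Costim, whereas of 191 in genes at 100 CPM or more only 15 and 8 passed. The absolute PSI difference and the gene's CPM were inversely related across the introns (Spearman -0.47, n = 969, introns of 1 gene sharing a CPM value). In the 554 genes at 10 CPM or more, 105 of 643 introns (16.3%) were higher in Ag, against 3.34% of all events in such genes, and 30 (4.67%) in Ag+Costim, against 3.36%. Of the introns past the difference, 77.8% were higher in Ag in these genes and 75.2% over all genes.

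Events that sit near 0 or 1 have little room to move, and 53.7% of the introns did. Among introns in genes at 10 CPM or more with a mean PSI between 0.1 and 0.9, 88 of 244 (36.1%) were higher in Ag and 28 (11.5%) in Ag+Costim, so that 75.9% of those past the difference were higher in Ag. Over all 10309 events of that kind the share was 51.6%. Alternative donors (60.3%, 126 and 83 of 532) and alternative acceptors (60.1%, 119 and 79 of 609) lay between, and core exons were nearly even (50.9%, 399 and 385 of 1972). With 1 value per group, these differences between event types could not be tested against the spread of libraries.

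**Figure D2:**
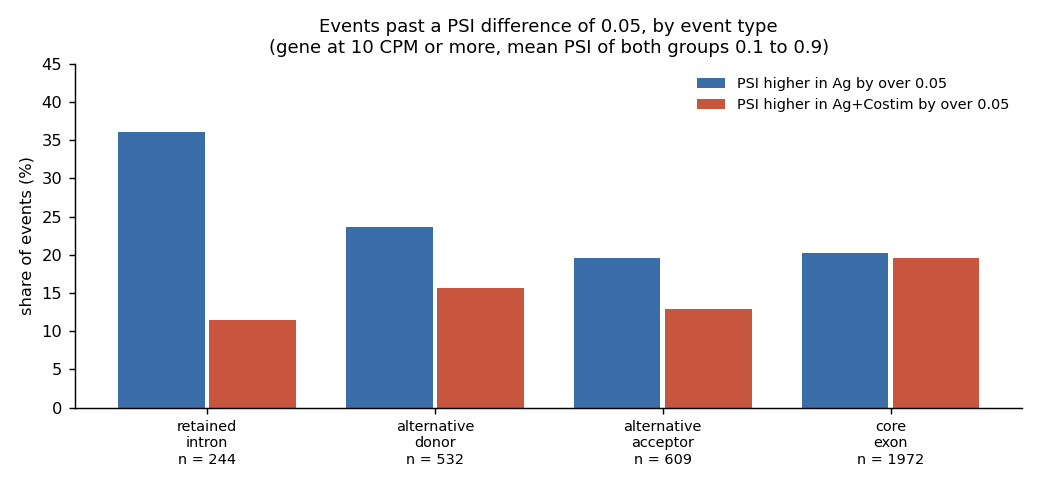
Share of events (y axis, %) with a PSI difference over 0.05, by event type, in genes at 10 CPM or more and with a mean PSI between 0.1 and 0.9. Blue bars count events higher in Ag and red bars events higher in Ag+Costim. Retained introns had 36.1% and 11.5%, core exons 20.2% and 19.5%.

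The introns were short. Their median length was 241 bases, in a range from 1 to 8683. PSI fell with length, from a median of 0.666 in Ag and 0.688 in Ag+Costim at 30 to 99 bases (166 introns) to 0.317 and 0.253 at 1000 bases or more (123 introns). The relation was weak (Spearman between length and mean PSI -0.20 over 969 introns, and -0.099 over the 902 of 60 bases or more). Among introns of 1000 bases or more, 37 were higher in Ag and 10 in Ag+Costim. From 100 to under 250 bases the counts were 77 and 25 of 296, from there to under 500 bases 54 and 19 of 202, and from there to under 1000 bases 34 and 11 of 143. Introns of 30 to 99 bases had 27 and 11. The excess in Ag was thus seen in each of these 5 length bands. GC content bore almost no relation to PSI (Spearman 0.062, n = 899).

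A further 39 events spanned 1 to 29 bases, which is too short for an intron that the spliceosome removes. Their median PSI was 0.975 in Ag and 0.989 in Ag+Costim, and 1 of them passed the difference. Itgal, the alpha chain of the integrin LFA-1, held such a gap of 1 base, and Cfl1, which encodes the actin-severing protein cofilin, held a pair of 2 bases each. All 3 had a PSI close to 1 in both groups. H2-T10, a class I MHC gene, held the shortest interval that passed, of 11 bases, with 0.634 in Ag and 0.563 in Ag+Costim.

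Splice site letters went with the PSI level. Of the 969 introns, 825 began with GT and ended with AG, and their median PSI was 0.373 in Ag and 0.299 in Ag+Costim, with 216 higher in Ag and 68 in Ag+Costim. The 25 with GC and AG had medians of 0.894 and 0.936, with 3 and 3 past the difference. The 93 with other ends had medians of 0.966 and 0.975, with 10 and 5 past it. For the other 26 the ends were not read. The highest PSI values in genes at 10 CPM or more, all close to 1, belonged to Ftl1 (ferritin light chain), Cfl1, Gm26917, Park7 and Gpx1 (glutathione peroxidase). By transcripts, 4 of these genes had a retained share above 99% in every library, whereas both Cfl1 gaps had 25.9 ± 5.08% (Ag) and 24.7 ± 1.45% (Ag+Costim; SD, n = 5).

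Of 813 GT-AG introns of 60 bases or more, 793 entered a count of donor letters. A fixed rule of the processing left out a whole chromosome, and introns without enough flanking exon were left out as well. Among the 793, the donor read GTAAG or GTGAG in 41.7%. The letters were searched only at the donor, on the transcribed strand. They stood at 52.4% of the 231 introns with a mean PSI under 0.1, 45.1% of 233 between 0.1 and 0.5, 35.1% of 171 between 0.5 and 0.9 and 28.5% of 158 over 0.9. Introns with those letters had median PSI values of 0.217 (Ag) and 0.149 (Ag+Costim), those without 0.483 and 0.444. By direction they hardly differed. The letters were present in 44.0% of 207 introns higher in Ag, 42.4% of 66 higher in Ag+Costim and 40.8% of 520 within the difference. C or T made up a median of 75% of the 20 bases before the acceptor dinucleotide in introns under a PSI of 0.5, and 70% above it.

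PSI also differed by the place of the intron in the transcript. In Ag, the median PSI was 0.295 for 488 introns that interrupt the coding sequence, 0.489 for 241 in the 5′ UTR and 0.908 for 154 in the 3′ UTR. In Ag+Costim these medians were 0.182, 0.420 and 0.861. A further 65 introns were spliced in non-coding transcripts alone (0.888 and 0.825), and 21 were not annotated as introns in GENCODE M21. All 4 annotated places held more introns higher in Ag than in Ag+Costim, with 109 and 28 in coding sequence, 62 and 23 in the 5′ UTR, 35 and 14 in the 3′ UTR and 21 and 9 in non-coding transcripts. By order in the transcript, 50 of 197 internal introns were higher in Ag and 7 in Ag+Costim, compared with 66 and 28 of 268 first introns and 100 and 36 of 439 last introns.

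Coding introns split by whether the ribosome could read through them. Read in the frame of the spliced transcript, 328 held a stop codon, and their median PSI was 0.164 in Ag and 0.105 in Ag+Costim. The 89 that were open and a multiple of 3 bases long, so that keeping them adds amino acids without shifting the frame, had medians of 0.851 and 0.794. Those open but not a multiple of 3 (68 introns, which include most of the gaps of under 30 bases) had 0.929 and 0.917. Of introns with a stop codon, 81 (24.7%) were higher in Ag and 19 (5.79%) in Ag+Costim, and of the open multiples of 3, 21 (23.6%) and 6 (6.74%). In genes at 10 CPM or more, those higher in Ag were 34 of 233 with a stop codon (14.6%) and 13 of 58 open multiples of 3 (22.4%). The first had less room to fall, with a median PSI in Ag of 0.078 against 0.778. At a mean PSI between 0.1 and 0.9 in these genes, the counts were 29 of 77 (37.7%) and 12 of 26 (46.2%). Over all genes in that PSI range they were 73 of 151 (48.3%) and 19 of 41 (46.3%). These differences were not tested. Whether poly(A) selection or decay of transcripts with premature stop codons acts on these levels was not tested. Such a stop codon need not be premature, since annotated protein-coding transcripts keep introns of this kind, that of Nop16 among them. Over all 969 events, the intron-keeping transcript with the most counts was annotated as protein-coding for 849. It was annotated as retained intron for 42 and as nonsense-mediated decay for 6. Most events are thus intervals that an annotated coding transcript keeps.

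**Figure D3:**
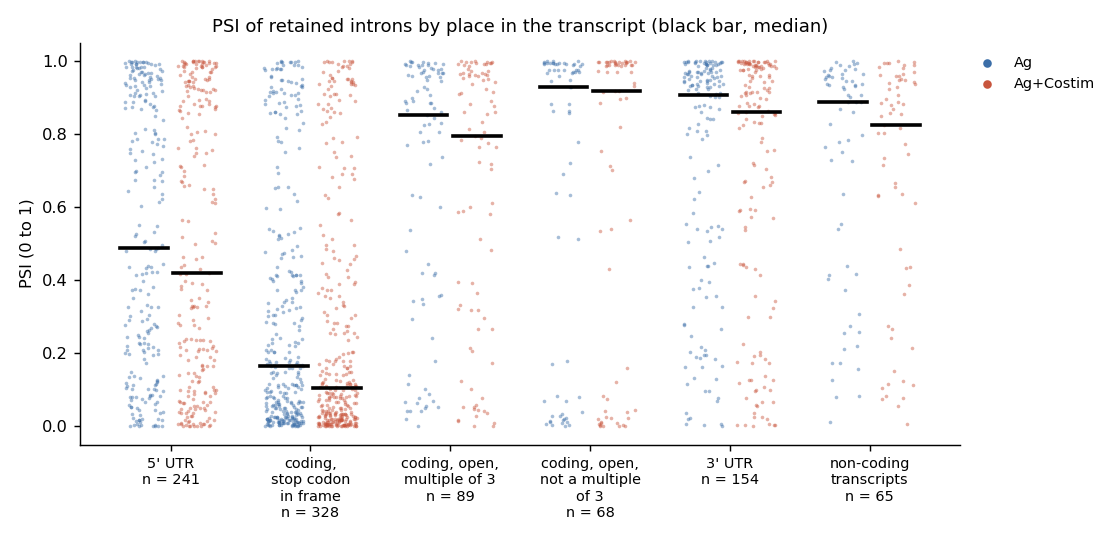
PSI (y axis, 0 to 1) of retained introns in Ag (blue) and Ag+Costim (red), by place in the transcript and, in coding sequence, by reading frame. Each point is 1 intron and the black bar the median. Introns with a stop codon in frame gather at the bottom (medians 0.164 and 0.105), open introns and those of the 3′ UTR at the top.

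Of all introns in genes at 10 CPM or more, that of Ly6e differed most. Ly6e, a GPI-anchored surface protein of the Ly6 family induced by interferon, keeps or loses 147 bases of its 5′ UTR, so the protein is the same in either case. Its PSI was 0.729 in Ag and 0.209 in Ag+Costim. The retained share from transcripts was 17.1, 41.2, 93.4, 10.1 and 78.3% in the 5 Ag libraries and 65.0, 70.8, 10.5, 11.2 and 18.2% in the 5 Ag+Costim libraries. Both groups held high and low libraries and overlapped over most of their range (48.0 ± 36.8% and 35.1 ± 30.1%, SD, n = 5, two-sided exact permutation p = 0.563). The gene's level was similar, at 1730 ± 515 CPM and 1757 ± 175 CPM (SD, n = 5, edgeR BH 0.956).

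Capn15 is a member of the calpain protease family. Its intron of 105 bases is open and a multiple of 3, and its PSI was 0.884 in Ag and 0.611 in Ag+Costim. Transcripts with the intron made up 99.7 to 100% in the 5 Ag libraries, and 67.1, 69.2, 58.8, 70.5 and 86.0% in the 5 Ag+Costim libraries. No Ag+Costim library reached the lowest Ag library, and the means were 99.9 ± 0.132% and 70.3 ± 9.89% (SD, n = 5, two-sided exact permutation p = 0.0079, the smallest that 5 against 5 libraries can give, before any adjustment for the 834 introns measured). In the usage test, its leading transcript with the intron, Capn15-205, had a log2 fold change of -1.01 and did not pass (edgeR diffSpliceDGE, BH-adjusted p = 1.0, 0.0746 unadjusted). This interval overlaps the genes D630044L22Rik and Gm26694, so some of its reads may belong to them. Several other named introns share this limit and are listed with the processing. Capn15 stood at 19.6 ± 4.72 CPM (Ag) and 26.0 ± 1.77 CPM (Ag+Costim; SD, n = 5, edgeR BH 0.266).

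The other 6 of the 8 introns with the largest falls were lower in Ag+Costim by 0.208 or more. Plscr3, a phospholipid scramblase, had 0.695 in Ag and 0.416 in Ag+Costim in its 5′ UTR, with retained shares of 26.7 to 90.1% and 17.4 to 78.2%. 2410002F23Rik had 0.732 and 0.462, with 68.5 to 96.9% and 77.1 to 96.3%. Zfp329, a zinc finger gene, had 0.844 and 0.632, and its shares were 93.6, 89.1, 90.9, 85.8 and 7.90% against 49.6, 70.9, 43.3, 68.6 and 51.4%. Only Ag replicate 5 lay below the Ag+Costim libraries. Stx17, the syntaxin that joins autophagosomes to lysosomes, lost retention of a 3′ UTR intron of 1603 bases by PSI (0.879 and 0.668) while its share stayed between 96.0 and 100% in all 10 libraries. Tmem191c had a PSI of 0.635 and 0.427 at its most changed intron, with shares of 23.0 to 50.5% and 26.6 to 42.3%. Rab40c, whose 40-base interval had 0.485 and 0.234, was at 100% in every library by transcripts, so the PSI fall had no counterpart there. None of these 6 differed between the groups by the exact permutation test on the retained share.

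Introns higher in Ag+Costim were found in Bcl2l11, Mcl1, Xpo1 and Ccr2, among others. Bcl2l11 encodes Bim, the BH3-only protein that triggers T cell death, and the 168 bases of this intron are the stretch that BimEL has and BimL lacks. Its PSI was 0.479 in Ag and 0.588 in Ag+Costim. The share with the intron was 75.3, 71.7, 51.7, 71.7 and 65.4% in Ag and 70.0, 77.2, 66.8, 71.9 and 78.3% in Ag+Costim. The groups overlapped (67.1 ± 9.33% and 72.8 ± 4.84%, SD, n = 5, two-sided exact permutation p = 0.254). Bcl2l11 as a gene had 36.9 ± 29.6 CPM (Ag) and 16.1 ± 3.57 CPM (Ag+Costim; SD, n = 5, edgeR BH 0.265).

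Mcl1, the anti-apoptotic partner that Bim binds, had 0.851 and 0.959 at a coding interval of 138 bases, and Xpo1, the exporter of proteins and RNA from the nucleus, had 0.803 and 0.915 at one of 244 bases in the 5′ UTR. Neither has the usual splice site letters, as printed above, and transcripts that keep these stretches made up 99.9 to 100% of the counts in all 10 libraries. Ccr2, the chemokine receptor that guides effector cells to inflamed tissue, had 0.399 and 0.561 at a 5′ UTR intron of 1747 bases. Its shares were 31.5, 69.9, 59.7, 26.9 and 71.0% in Ag and 66.9 to 69.2% in Ag+Costim. Thus 2 Ag libraries, replicates 1 and 4, were low, and the other 3 lay near the Ag+Costim libraries (two-sided exact permutation p = 0.167, n = 5 per group). Dpy19l1 had 0.541 and 0.660, with 43.0 to 81.9% and 62.1 to 84.5%. Rbm12b2 (0.196 and 0.330) and Yipf2 (0.255 and 0.375) had overlapping shares as well.

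Ribosomal protein genes were the list with most members, 16 introns in 13 genes, and most were at the bottom of the PSI scale (median 0.0029 in Ag and 0.0031 in Ag+Costim). Of these, 3 were higher in Ag+Costim and 0 in Ag, all 3 in the 5′ UTR. Of all 969 introns, 7.84% and 23.7% passed in those directions. Rps27a had 0.217 and 0.383, Rpl27 0.210 and 0.281 and Rpl41 0.603 and 0.662. The share of the Rpl27 intron was 12.4, 26.8, 22.3, 11.8 and 29.2% in Ag and 25.6, 26.5, 28.8, 28.9 and 28.3% in Ag+Costim (two-sided exact permutation p = 0.119, n = 5 per group). For Rpl41 it was 6.78, 14.7, 13.2, 6.96 and 12.8% in Ag and 12.4 to 14.9% in Ag+Costim. As with Ccr2, Ag replicates 1 and 4 were the low libraries for both genes and the other 3 Ag libraries reached into or close to the Ag+Costim range. For Rps27a, Ag replicate 4 alone was low (53.0%, against 70.7 to 79.5% in the other 4 and 71.9 to 77.9% in Ag+Costim). Rpl28 was the exception in kind, with a PSI of 0.00057 and 0.0047 and a share of 5.06% and 8.91% that did not overlap between the groups (two-sided exact permutation p = 0.0079, n = 5), although its PSI difference was far below 0.05. It lies outside the rule for named introns and was chosen after its values were seen, and shares without overlap always give this p.

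SR, hnRNP and core spliceosome genes held 12 of the events. In the SR proteins, which bind exons and recruit the spliceosome, both directions occurred. Srsf1 had 0.181 in Ag and 0.0775 in Ag+Costim at an intron of 196 bases with a stop codon in frame and 0.993 and 0.998 at a second of 378 bases. Srsf2 had 0.828 and 0.912 in its 3′ UTR. The Srsf1 share was 42.6, 19.9, 5.71, 32.9 and 8.01% in Ag and 18.8, 26.2, 22.1, 14.8 and 12.1% in Ag+Costim, with the Ag libraries on both sides of the Ag+Costim range (21.8 ± 15.9% and 18.8 ± 5.64%, SD, n = 5, two-sided exact permutation p = 0.698). For Srsf2, Ag replicates 1 and 4 were low once more (77.5 and 81.7%) and the other 8 libraries lay between 93.5 and 97.2%.

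None of the 4 introns in hnRNP and FET genes passed the difference. Tardbp (TDP-43) had 0.521 and 0.550 at 941 bases, an interval in coding sequence that the protein-coding transcript Tardbp-202 keeps. Its share from transcripts went the other way, 97.8, 98.1, 100, 96.7 and 96.4% in Ag and 78.8, 96.4, 88.1, 87.1 and 98.0% in Ag+Costim (two-sided exact permutation p = 0.056, n = 5). Hnrnpm had 0.293 and 0.266 at 117 bases that are open and a multiple of 3. Of 5 introns in core spliceosome genes, Luc7l3, a U1 snRNP-associated protein, passed (0.306 and 0.244), with a share of 72.7 to 87.7% in Ag and 76.2 to 84.3% in Ag+Costim. Prpf8 (0.991 and 0.998) and U2af2 (0.996 and 0.998) kept their introns almost fully, and U2af2 carries GG in place of GT. Cleavage, polyadenylation and export factors had 4 introns with none past the difference, among them Pcf11 at 0.968 and 0.988, and the exon junction protein Rbm8a had 1 at 0.0032 and 0.00090. No SR protein kinase held an event.

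Among 8 introns in translation factors and tRNA synthetases, 2 were higher in Ag. They were Eif2b4 (0.237 and 0.173) and Eif4g1 (0.0659 and 0.0073), the scaffold of the cap-binding complex. The Eif4g1 share exceeded 1% in only 1 of 10 libraries, Ag replicate 3 with 35.8%. Eif4a2 had 0.400 and 0.444 and Eif2s2 0.981 and 0.994. The ribosome biogenesis genes Taf1d (0.709 and 0.691) and Nop16 (0.998 and 0.999) stayed within the difference. In cell cycle genes, 1 of 8 introns passed, that of the 3′ UTR of Cdkn1b (p27), which brakes entry into S phase (0.247 and 0.186, with shares of 21.04 to 79.6% and 30.4 to 52.1%). Aurkb (0.918 and 0.921) and Ccnd2 (0.9992 and 0.9996) did not pass. T cell receptor and costimulatory signalling genes had 3 introns, in Lck, Mapk3 and Tnfrsf18, with a median PSI of 0.024 and 0.022 and none past the difference. Ogt, which attaches O-GlcNAc to proteins, had 0.802 and 0.762 at its first intron, in the 5′ UTR. Over all lists, 56 introns in 49 genes had 5 higher in Ag and 4 in Ag+Costim, and 29 of the 56 had the lower PSI in Ag+Costim. Of all 969 introns, 230 (23.7%) were higher in Ag and 76 (7.84%) in Ag+Costim, and 613 had the lower PSI in Ag+Costim. In genes at 100 CPM or more, 15 (7.85%) and 8 (4.19%) of 191 introns passed.

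The retained share, a transcript measure unlike PSI, gave a mean for each library. Averaged over the 834 introns, it was 57.7, 55.2, 58.8, 57.7 and 53.0% in Ag and 54.2 to 55.5% in Ag+Costim. Ag replicates 1, 3 and 4 lay above every Ag+Costim library and Ag replicate 5 below them (56.5 ± 2.37% and 54.97 ± 0.475%, SD, n = 5). The difference of -1.53 percentage points was therefore within the spread of the Ag libraries. It was -0.942 without Ag replicate 3. Over all 10762 introns that the annotation both keeps and splices, the difference was -2.01 points (33.2 ± 2.67% and 31.2 ± 0.591%, SD, n = 5). Taken as the median over introns in each library, the difference was -3.49 points for the events and -3.06 points for all annotated introns.

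Those 3 Ag libraries also stood apart in other ways. Between 40441 and 51778 genes had a count in them, against 20714 and 21779 in the other 2 Ag libraries and 28727 to 30340 in Ag+Costim. They held 110.6 to 288.3 summed CPM of 4 B cell genes, against 14.4 to 31.5 in the other 7 libraries, and Ag replicate 3 held 669.2 CPM of 4 erythroid genes at a total of 59.6 M counts, where the others had 259.6 to 639.1 M. The 5 CD8 T cell markers were high throughout (2079 to 3964 CPM in Ag and 2753 to 3378 CPM in Ag+Costim), summed myeloid genes were 32.2 to 85.7 CPM and 62.9 to 132.1 CPM, and CD4 T cell genes 2.64 to 11.4 CPM and 0.885 to 4.07 CPM, with no marker at 0 in all libraries. Without these 3 libraries, the mean retained share was 54.1% (Ag) and 54.97% (Ag+Costim), a difference of 0.865 points in the opposite direction. The part of other cells and of depth in the PSI values, which are given per group, was not tested. In sorted bulk cells, fewer cells of a type and less RNA per cell cannot be told apart.

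**Figure D4:**
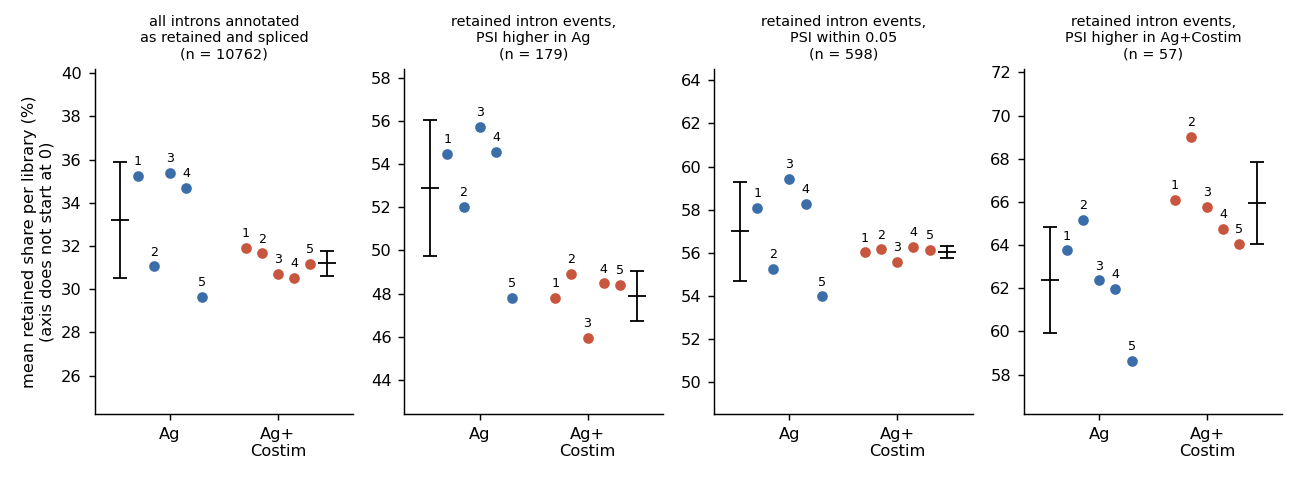
Mean retained share (y axis, %, not starting at 0) in each of 5 Ag (blue) and 5 Ag+Costim (red) libraries, numbered by replicate, for all introns annotated as retained and spliced and for the events by PSI class. Bars are the mean and SD of the 5 libraries. Ag replicates 1, 3 and 4 lie above the Ag+Costim libraries in the first 3 panels, and Ag replicate 5 is the lowest Ag library in every panel.

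PSI and transcripts gave related orders of the introns. Across the 834, the PSI and the mean retained share had a Spearman correlation of 0.77 in Ag and 0.78 in Ag+Costim, and the differences between groups one of 0.35 (both measures come from the same libraries). Of 179 measured introns with the higher PSI in Ag, 128 also had the higher mean share in Ag, as did 449 of all 834. Their mean share was 54.5, 52.0, 55.7, 54.6 and 47.8% in Ag and 47.8, 48.9, 45.9, 48.5 and 48.4% in Ag+Costim, so that 4 of 5 Ag libraries were above all of Ag+Costim. Of 57 introns with the higher PSI in Ag+Costim, 39 had the higher mean share there, as did 275 of the 834. With Ag replicates 1, 3 and 4 left out, the share was higher in Ag for 86 of the 179 and 321 of the 834, and higher in Ag+Costim for 27 of the 57 and 396 of the 834.

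Few introns separated the groups library by library. The retained share was lower in every Ag+Costim library than in every Ag library for 16 of 834 introns (1.92%), against 2.05% of all 10762, and higher for 6 (0.719%), against 0.242%. The first share was near the background. Besides Capn15, the largest such differences in genes at 10 CPM or more were in Fubp1, Zfp426, Inpp5d and Zfp644. Fubp1, the activator of Myc transcription that also binds RNA, had 59.1, 62.6, 100, 64.2 and 100% in Ag and 44.1, 47.5, 54.8, 56.5 and 51.1% in Ag+Costim at a 3′ UTR intron of 1002 bases, whose PSI was 0.902 and 0.831. A neighbouring intron of 897 bases, kept in the same transcript, had 70.9 ± 15.3% and 49.6 ± 5.26% (SD, n = 5) while its PSI hardly differed (0.357 and 0.356).

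Inpp5d encodes SHIP1, the phosphatase that restrains PI3K signalling, and its 183 bases are open and a multiple of 3. The retained share was 33.4, 41.0, 49.2, 75.04 and 32.3% in Ag and 29.9, 28.2, 30.5, 28.0 and 31.3% in Ag+Costim, and PSI was 0.832 and 0.774. All Ag libraries lay above Ag+Costim, by little in replicates 1 and 5 and by much in replicate 4. Zfp644 had 81.3, 56.1, 62.4, 55.4 and 76.3% in Ag and 53.1, 50.6, 53.5, 50.2 and 47.6% in Ag+Costim at 93 open bases (PSI 0.419 and 0.319). Zfp426 had 61.1 ± 8.57% and 42.8 ± 5.47% (SD, n = 5) with nearly equal PSI values (0.786 and 0.784), and its closest libraries were 51.34% and 51.27%. The two-sided exact permutation p was 0.0079 for each of these 5 introns, before any adjustment for the 834 measured. They were named because their shares do not overlap, and 5 against 5 libraries without overlap always give this p. It therefore adds nothing to the choice. Among 11 alternatives, the exact p of Inpp5d was under 0.05 in only 6 and rose to 0.056 when an Ag+Costim library was left out. The groups still do not overlap then. With 5 against 4 libraries, other assignments gave as large a difference in means, so this rise does not measure their separation. That of Zfp426 was under 0.05 in 10 and rose to 0.087 when counts were divided by transcript length.

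**Figure D5:**
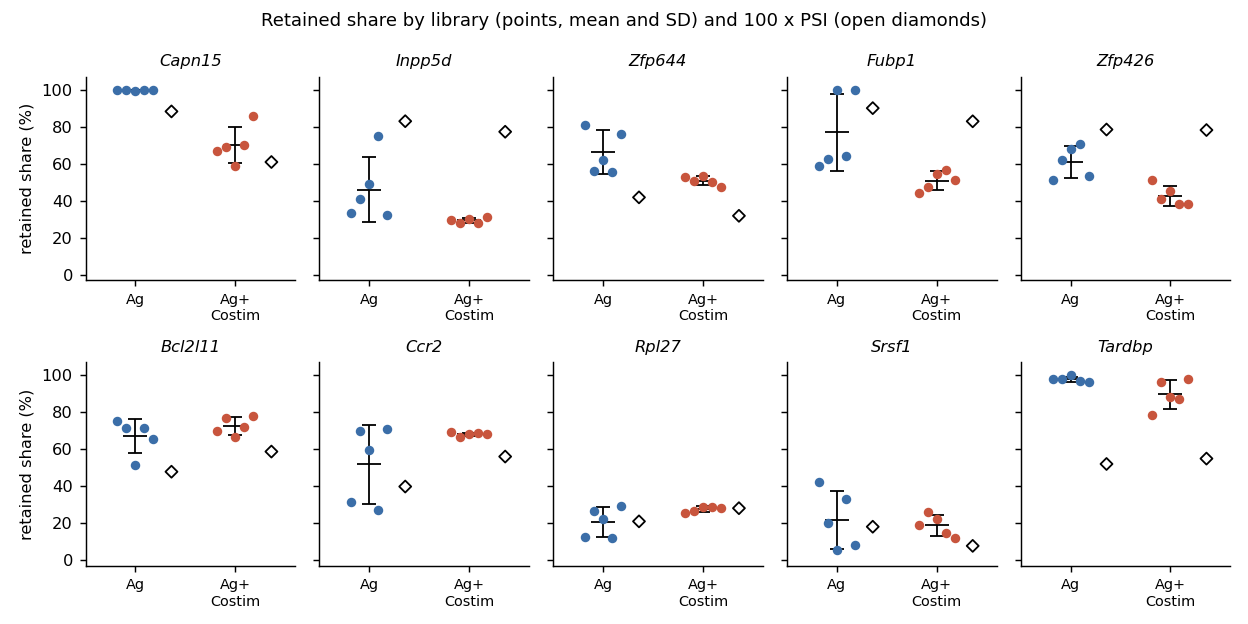
Retained share (y axis, %) of 10 introns in each Ag (blue) and Ag+Costim (red) library, with the mean and SD of 5 libraries, and 100 times the group's PSI as open diamonds. For Fubp1 the intron of 1002 bases is shown. The upper row separates the groups library by library, the lower row does not. Diamonds far from the points mark introns, such as those of Inpp5d and Tardbp, whose PSI and transcript share lie at different levels.

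In the usage test over 46774 transcripts, 59 (0.126%) were called at a BH under 0.05 (edgeR diffSpliceDGE), 13 lower (0.0278%) and 46 higher (0.0983%) in Ag+Costim. Of 1178 transcripts that keep an event's intron, 1 was called, lower in Ag+Costim. This was Brpf1-202, of the gene for a chromatin reader in histone acetyltransferase complexes. Its usage had a log2 fold change of -2.39 (BH 0.043). It made up 1.41, 8.36, 58.0, 46.8 and 1.67% of the gene's counts in Ag and 4.41, 4.63, 2.15, 0.226 and 0.431% in Ag+Costim, so Ag replicates 3 and 4 alone were high. The intron it keeps, of 102 bases, had PSI values of 0.335 and 0.333 and mean retained shares of 57.8% and 56.5% (two-sided exact permutation p = 0.968, n = 5 per group). At an unadjusted p under 0.05 there were 30 such transcripts, 23 lower and 7 higher in Ag+Costim, beside 1735 lower and 496 higher among all.

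In edgeR, 0 of 831 tested host genes passed a BH of 0.05 (0 of 24262 genes, 0.0%). An unadjusted p under 0.05 was found for 150 hosts, 103 higher and 47 lower in Ag+Costim. Among all 24262 genes it was found for 4501, 1915 higher and 2586 lower. At 10 CPM or more, most were higher in both sets, 95 and 14 lower of 554 hosts, 1746 and 243 lower of 8626 genes. DESeq2 called 45 of 837 higher in Ag+Costim, against 1.79% of all genes, and 39 lower, against 12.5%. These 43379 genes include many that the edgeR filter on low counts left out. Their median log2 fold change was -2.81, against -0.062 in hosts. The DESeq2 shares thus do not compare genes of like level. Without overlap between libraries, 61 of 831 hosts were higher in Ag+Costim (7.34%, against 4.48% of all genes tested) and 3 were lower (0.361%, against 1.13%). In genes at 10 CPM or more, 56 of 554 hosts (10.1%) were higher in every Ag+Costim library than in every Ag library, against 11.3% of all such genes, and 0 were lower, against 0.22%. The host gene's log2 fold change and the PSI difference were almost unrelated (Spearman 0.125 over 959 introns and 0.050 over 643 at 10 CPM or more, introns of 1 gene sharing a fold change). Srsf1 had 195 ± 61.3 CPM (Ag) and 346 ± 37.5 CPM (Ag+Costim), Prpf8 102 ± 14.7 and 225 ± 45.3 CPM and Eif4g1 155 ± 37.0 and 299 ± 39.8 CPM (SD, n = 5), with no overlap of libraries. Their edgeR BH values were 0.193, 0.117 and 0.141, whereas DESeq2 called all 3 (adjusted p 0.0124, 1.1e-06 and 0.00022).

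Of 92 genes with more than 1 event, 15 had at least 2 introns higher in Ag, 2 had at least 2 higher in Ag+Costim and 3 had introns past the difference in both directions. Macf1, with 7 introns in a giant cytoskeletal linker, had none past it. In Nudt17 all 5 introns were higher in Ag, but the gene stood at 1.52 CPM. The largest PSI differences of all were in such genes. Smim1 had 0.889 in Ag and 0.124 in Ag+Costim at 0.401 and 0.0318 CPM, and Gm128 0.358 and 0.916 at 0.574 and 0.188 CPM. The longest intron past the difference was one of 8683 bases in the 5′ UTR of Tmbim1 (0.445 and 0.296), with shares of 23.1 to 48.9% in Ag and 9.69 to 44.1% in Ag+Costim that overlapped through Ag+Costim replicate 1.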

How the data were processed

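Per the labels and the study's methods, the authors made poly(A) libraries with SMART-Seq v4 and Nextera XT, aligned reads to mm10 with HISAT2 2.1.0 and obtained counts with StringTie 2.1.0. The deposited gene and transcript values are estimated counts (expected counts), not normalized. From the raw reads the authors also made PSI with Whippet, deposited as 1 fraction per event and group. The same table holds the authors' PSI difference and probability scores, which were not used here.

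Introns were matched to GENCODE M21 by symbol (937) or coordinates (32), and 195 overlap another gene. Among the named introns these include Capn15, 2410002F23Rik, Rab40c, Rbm12b2, Yipf2, Dpy19l1 and Srsf2. They also include Eif2s2, Ccnd2, Zfp426, Zfp644, H2-T10, Tmbim1 and both Cfl1 gaps. Some of the reads of these intervals may belong to the other gene. A retained share needed at least 20 counts on informative transcripts in every library. StringTie divides reads among overlapping transcripts, so shares depend on the annotation. Transcript usage and gene counts were rounded to whole numbers and tested with edgeR 4.0.16 in R 4.3.3 (filterByExpr, TMM, quasi-likelihood, diffSpliceDGE, BH over all features), with limma 3.58.1 and DESeq2 1.42.0 as alternatives. On simulated counts the usage fit was tested before use. Single shares were compared by a two-sided exact permutation test over 252 assignments of libraries. Library totals were 59.6 to 449.4 M in Ag and 332.3 to 639.1 M in Ag+Costim, which limits thinly covered introns most in Ag replicate 3. Numbered entries that name no gene held 0.0458 to 0.308% of counts and were left out.

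Introns named were up to 8 per direction with the largest PSI difference and 6 with the highest PSI in genes at 10 CPM or more, up to 4 per gene list, up to 6 with non-overlapping shares, the longest and shortest past 0.05, and 1 per direction below 10 CPM. Brpf1, Nudt17, Macf1, Rpl28 and Rbm8a fall outside this rule and were chosen after their values were seen. The members, lists and rules were chosen with earlier results of these data known.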

Additional observations from a re-analysis of the deposited data

Results flagged for a closer look

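Among the introns named, 112 groups of 5 libraries were searched for a library far from the other 4 (a gap to the nearest over 0.71 of the group's range), and 12 were found, where chance flags about 1 in 20 groups. Ag replicate 3 was the outlying library in 4 of them, with a retained share of 99.7% for Capn15, 31.4% for Hnrnpm, 35.8% for Eif4g1 and 86.8% for Ogt. In Ag, replicate 4 had 68.5% for 2410002F23Rik, replicate 5 had 7.90% for Zfp329 and replicate 2 had 9.65% for Rbm12b2. In Ag+Costim, replicate 2 had 91.1% for Itgal and 0.00634% for Eif4g1, replicate 3 had 94.8% for Prpf8, replicate 4 had 99.998% for Gm26917 and replicate 5 had 99.88% for Gpx1. The shares of Capn15, Gm26917 and Gpx1 and the share of Eif4g1 in Ag+Costim differed from the other libraries by under 1 percentage point.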

How the results depend on the processing

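The excess of introns higher in Ag kept its direction under every alternative tried for PSI, with 126 against 31 at a difference over 0.1 and 105 against 30 in genes at 10 CPM or more. Genes at 1 CPM or more, 1 event per gene and introns of 60 bases or more (the last chosen after seeing the data) gave counts within 1.5 times the full one. The mean share difference stayed negative when any 1 library was left out (-2.41 to -0.942 points). With the 3 Ag libraries in which over 40000 genes had a count left out, a choice made after seeing the data, it was 0.865. Intron-retaining transcripts called by the usage test were 6 of 1178 with limma diffSplice (4 higher and 2 lower in Ag+Costim), against 0.682% of all transcripts. At a filter of 1 count in 2 libraries they were 11 of 1380 (5 and 6), against 0.454%. When 1 library was left out they were 0 to 5, against 0.116 to 0.443%, so the single call of Brpf1 rests on which libraries enter. Host genes called were 84 of 837 with DESeq2, against 14.3% of all genes, and 0 under every edgeR alternative, against 0.0%. The median fold change of hosts changed sign between TMM (0.072) and DESeq2-type size factors (-0.067). The causes were not tested. With the replicate block, 0 intron-retaining transcripts were called, against 0.107% of all transcripts. Libraries with the same number did not deviate together (correlations -0.099 to 0.113), so the numbers do not pair them. Without Ag replicate 5, the library flagged above for Zfp329, the Zfp329 difference was -33.1 points. Leaving it out removes all overlap between the groups, so the exact test could only pass. With all libraries the two-sided exact permutation p was 0.381.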
